A study of Mus musculus with 6 samples.

Results

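The S100 genes measured here encode small calcium-binding proteins. From a table of 36083 genes 8 of them were taken by symbol, chosen with earlier results of these data known. They are S100a1, S100a4, S100a6, S100a8, S100a9, S100a10, S100a11 and S100a13. All 8 had a row, and all 8 passed the minimum mean of 1 that left 12155 genes for testing. The libraries came from blast crisis chronic myeloid leukemia (bcCML) cells. Donor KLS cells, a bone marrow fraction rich in stem cells and progenitors, were taken from WT or Sdc1-/- mice of B6 background and were infected with retroviruses carrying BCR-ABL and NUP98-HOXA9, so both groups carry both oncogenes. Doubly positive cells were transplanted, per the labels, into NSG mice, immunodeficient hosts that lack mature T, B and NK cells (the study's general methods name CD45.1 mice as hosts), and Lin- leukemic cells were later sorted from the spleen. The Sdc1 allele, as the study describes it, has a disrupted signal peptide sequence and lacks surface Sdc1. The labels give no age of the animals and do not say if each library is its own mouse, and the study calls the WT libraries technical replicates in one legend, so the p-values may measure technical spread alone.

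S100 proteins have a pair of EF-hands, the loops that hold calcium, and mostly work as dimers that change shape on binding it. S100a8 and S100a9 together form calprotectin, an abundant protein of the cytosol of neutrophils and monocytes that sequesters zinc and manganese when released and signals through Tlr4 and the receptor RAGE. S100a10 is an exception in that its loops do not respond to calcium, and it acts in a complex with annexin A2.

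The 8 genes lay on chromosome 3 of GRCm38, the assembly called mm10 in the labels, at positions taken from RefSeq. S100a1 to S100a9 fell within 185 kb, from 90511034 to 90695721, and S100a11 and S100a10 within 44.2 kb, from 93520496 to 93564645. S100a8 (90669071 to 90670034) and S100a9 (90692630 to 90695721) were neighbours with no RefSeq gene between them, 22.6 kb apart. The 250 bases before the RefSeq start are printed for the 4 members with the largest difference between the groups. Capitals mark GAGGAA, the core read by the myeloid factor PU.1, or TTGCNNAA, part of a C/EBP site, on either strand (a match on the other strand to GAGGAA reads as TTCCTC). The windows, each written 5′ to 3′ on the strand of its gene, are chr3:90668821-90669070 (plus) for S100a8, chr3:90695722-90695971 (minus) for S100a9, chr3:90612644-90612893 (plus) for S100a6 and chr3:90603520-90603769 (plus) for S100a4.
S100a8: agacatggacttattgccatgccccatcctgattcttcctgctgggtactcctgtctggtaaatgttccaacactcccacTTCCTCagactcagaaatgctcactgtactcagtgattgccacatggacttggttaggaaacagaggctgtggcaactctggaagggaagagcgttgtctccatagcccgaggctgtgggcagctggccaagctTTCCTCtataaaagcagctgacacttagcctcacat
S100a9: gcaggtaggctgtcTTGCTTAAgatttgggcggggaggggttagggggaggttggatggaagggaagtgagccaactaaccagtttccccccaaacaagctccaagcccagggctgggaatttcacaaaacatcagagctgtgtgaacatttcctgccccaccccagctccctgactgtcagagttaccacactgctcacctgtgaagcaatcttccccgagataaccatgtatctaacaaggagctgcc
S100a6: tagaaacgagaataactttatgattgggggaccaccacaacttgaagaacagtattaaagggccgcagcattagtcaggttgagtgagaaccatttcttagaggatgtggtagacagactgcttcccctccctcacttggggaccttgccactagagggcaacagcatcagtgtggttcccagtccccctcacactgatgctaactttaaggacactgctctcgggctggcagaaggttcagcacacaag
S100a4: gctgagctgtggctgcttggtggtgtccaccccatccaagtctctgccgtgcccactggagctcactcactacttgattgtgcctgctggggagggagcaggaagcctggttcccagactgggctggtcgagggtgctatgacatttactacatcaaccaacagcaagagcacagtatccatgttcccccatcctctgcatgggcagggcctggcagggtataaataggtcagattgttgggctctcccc
In the window of S100a8 GAGGAA matched at 2 places on the other strand, the nearer one from -36 to -31 before the start, beside TATAAA from -30 to -25. The window of S100a9 held TTGCNNAA once, from -236 to -229. Neither sequence occurred in the windows of S100a6 and S100a4, and S100a4 held TATAAA from -31 to -26. The promoter table held 7 of the 8 members. GAGGAA was in 2 of these 7 and in 23.3% of all 32851 promoter windows of that length, TTGCNNAA in 1 of 7 and in 9.56%, and TATAAA in 2 of 7 and in 12.4%. Of the other motifs searched on both strands, CACGTG (USF1) and ACGTG (HIF1, contained in it) were each in 1 of 7, both at S100a11, and in 6.02% and 16.6% of all windows. TTCNNNGAA (STAT3, 7.02% of all), a GFI1 motif (2.40%), CTTTGAA (TCF, 4.46%) and TGACNNNGC (NRF2, 10.2%) were in none of the 7. These are matches of letters and no evidence of binding.

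Values are TPM from kallisto, a measure per transcript length and library, that the authors rescaled between libraries, so levels can be compared between genes per length. Read depth is unknown, and the library sums were on average 1.11 times as large in the libraries labelled WT. Sdc1 itself went against the labels, with values from 1.21 to 1.75 in the WT-labelled libraries and from 3.805 to 4.12 in those labelled Sdc1-/-, so the groups are called by their labels throughout. The study checked the loss of Sdc1 by PCR of genomic DNA and by staining for the protein, neither of which measures the mRNA. The Y chromosome genes Eif2s3y, Ddx3y, Kdm5d and Uty summed to at most 0.31 in the WT-labelled libraries and to 68.1 to 78.4 in the others. Donor sex and genotype therefore cannot be told apart in any comparison given here. The study states that animals in its experiments were matched for age and sex, which the Y chromosome values do not match. Defining markers of T cells summed to less than 1 in every library, and Kit and Cd34 of progenitors were present in all 6. Hoxa9 was present in all 6 as well, but both groups carry NUP98-HOXA9, and reads of the fusion were not told apart.

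All 8 S100 genes were lower in the Sdc1-/- group as labelled, the one with more Sdc1 mRNA (8 of 8 at an adjusted p-value under 0.05 from limma with Benjamini-Hochberg adjustment over all genes). Of all genes tested 31.3% were lower by the same rule and 29.3% higher. In each of the 8 genes every library labelled Sdc1-/- lay below every library labelled WT, as it did in 34.2% of all genes. The members fell into sizes that were far apart, with S100a8, S100a9 and S100a6 lower by more than 2.7-fold, S100a4 by 1.82-fold and the other 4 by 1.16-fold to 1.28-fold. With S100a6, S100a8 and S100a9, 3 of 8 were called and at least 2-fold lower on the log2(value + 1) scale, against 2.92% of all genes. In bulk RNA, fewer cells of a type and less of the RNA per cell cannot be told apart.

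**Figure D1:**
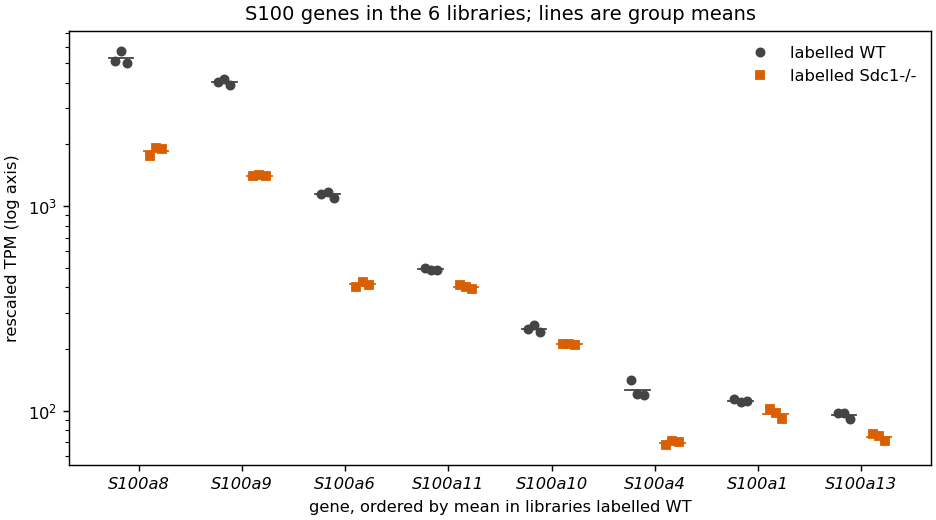
Rescaled TPM (log axis) of the 8 S100 genes in each library, with circles for the 3 libraries labelled WT, squares for the 3 labelled Sdc1-/- and lines for group means. S100a8, S100a9 and S100a6 are separated by wide gaps, from 1139 to 414 in the mean for S100a6, while S100a1, S100a10, S100a11 and S100a13 are separated by small ones.

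S100a8, the smaller subunit of calprotectin, was the most abundant member, at 5090.2, 5732 and 5014 in libraries 1 to 3 labelled WT. It stood at 1760.4, 1913 and 1903 in libraries 1 to 3 labelled Sdc1-/-. The highest of these was far under the lowest of the WT values. The means of 5279 ± 394 and 1859 ± 85.4 (SD, n = 3) gave a log2 fold change of -1.50 ± 0.061 (SE; limma, adjusted p = 3.3e-06).

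S100a9, its partner and the subunit with the longer tail, had values of 4034, 4161 and 3897 in the libraries labelled WT. In the libraries labelled Sdc1-/- it had 1400.3, 1417 and 1408. These 3 were nearly equal, and the groups were as far apart as for S100a8. Means were 4031 ± 132 and 1408 ± 8.27 (SD, n = 3), with a log2 fold change of -1.52 ± 0.033 (SE; limma, adjusted p = 5.4e-07). This was the largest among the members under the authors' scaling, while quantile normalization put S100a6 first, at -1.33 against -1.32 for S100a9.
The ratio between the calprotectin subunits, which is free of any single scaling factor per library, was nearly level. On the log2 scale S100a8 exceeded S100a9 by 0.34, 0.46 and 0.36 in the WT-labelled libraries and by 0.33, 0.43 and 0.43 in those labelled Sdc1-/-. The groups overlapped, and their difference of 0.012 was under the SD within either group (0.066 and 0.060; exact permutation test, two-sided, p = 1). Its direction turned when WT library 1 (-0.014), Sdc1-/- library 2 (-0.0050) or Sdc1-/- library 3 (-0.0053) was left out. Quantile normalization, which is no single factor, gave log2 fold changes of -1.27 for S100a8 and -1.32 for S100a9, and the ratio itself was not tested under it.

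S100a6, also called calcyclin, a protein of proliferating cells that binds Cacybp, was lower by nearly as much. It had values of 1150.05, 1177 and 1091 in the WT-labelled libraries and of 402, 427 and 412 in those labelled Sdc1-/-. The groups stood far apart beside the spread within them. The log2 fold change was -1.46 ± 0.040 (SE; limma, adjusted p = 9.3e-07), and its 95% interval from -1.55 to -1.36 overlapped that of S100a8, from -1.65 to -1.36.

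S100a4, a protein tied to cell motility through its binding of nonmuscle myosin Myh9, came between the large and the small differences. S100a4 was at 141, 120 and 119 in the WT-labelled libraries and 67.9, 70.9 and 70.0 in those labelled Sdc1-/-. Library 1 labelled WT stood above the other two of its group, which still lay well over all 3 of the other group. The log2 fold change was -0.85 ± 0.067 (SE; limma, adjusted p = 5.2e-05).
A share of this signal is uncertain, since 272 of 553 stretches of 31 bases from S100a4 transcripts (49.2%) also occur in Gm42674. That gene overlaps S100a4 on the plus strand, from 90601904 to 90605885, in GENCODE M21. Gm42674 had 57.3, 80.7 and 64.8 in the WT-labelled libraries and 35.9, 28.6 and 23.8 in the others, and was lower as well (log2 fold change -1.18, adjusted p = 8.5e-04 from limma). Both genes summed per library, a step chosen after seeing the data, gave 198, 201 and 184 against 104, 99.4 and 93.8. The summed values differed by -0.97 on the log2 scale, with no overlap (p = 0.1 by a two-sided exact permutation test, its minimum with 3 against 3 libraries).

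S100a11, which binds annexin A1 and has a part in membrane repair and growth control, differed by less. It was at 497, 489 and 488 in the WT-labelled libraries and 409, 401 and 391 in those labelled Sdc1-/-. The groups did not overlap and the gap was several times the spread within them. The log2 fold change was -0.29 ± 0.029 (SE; limma, adjusted p = 1.4e-04). Of its 481 stretches of 31 bases 48.9% occur in 6 other genes, none of which exceeded 0.69 in any library.

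S100a10, the partner of annexin A2 at the plasma membrane, was at 251, 262 and 241 in the WT-labelled libraries and at 211, 212 and 209 in those labelled Sdc1-/-. All WT values were higher, and the other group was almost level. Its log2 fold change was -0.25 ± 0.036 (SE; limma, adjusted p = 8.4e-04).
S100a13, a carrier in the release of Fgf1 and Il1a, had values of 96.9, 97.5 and 91.0 in the WT-labelled libraries and of 77.3, 74.95 and 71.2 in the others. The groups were apart by more than their ranges, with a log2 fold change of -0.35 ± 0.044 (SE; limma, adjusted p = 4.5e-04).

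S100a1, best known as a regulator of calcium handling in muscle, differed least, with 113, 110.0 and 111 in the WT-labelled libraries and 102, 96.9 and 90.5 in those labelled Sdc1-/-. The groups did not overlap, and library 3 labelled Sdc1-/- was the lowest. The log2 fold change of -0.21 ± 0.046 (SE; limma, adjusted p = 0.0063) was called under the authors' scaling and not called under the other scalings. With library sums made equal at 1000000 it was -0.062 (adjusted p = 0.24 from limma), and with quantile normalization -0.11 (adjusted p = 0.076 from limma). That sum moved the middle of all log2 fold changes, their median, from -0.0097 to 0.12 and left 30.9% of all calls lower instead of 51.7%. The other 7 members were lower and called under all 3 scalings, S100a10 by 0.10 with an adjusted p of 0.035 from limma at the sum of 1000000. That sum also brought S100a11 to -0.15 and S100a13 to -0.20 on the log2 scale.

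**Figure D2:**
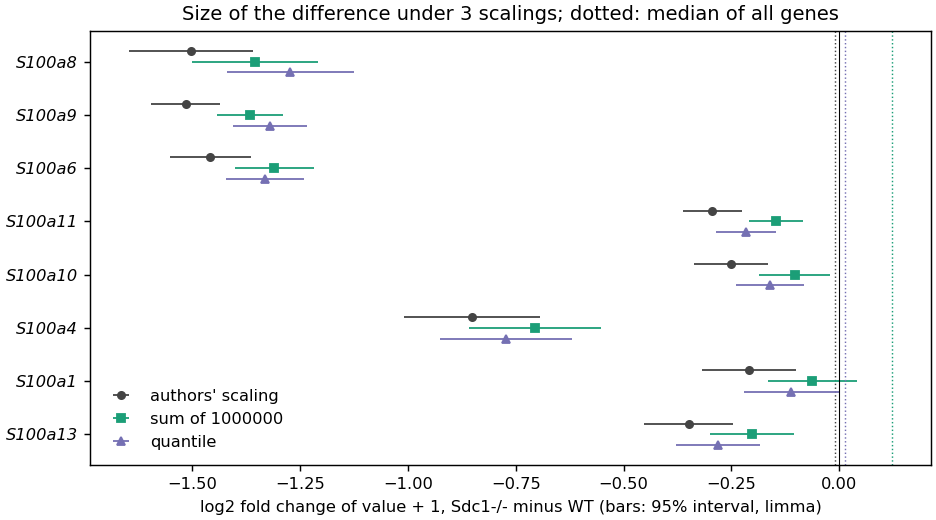
Log2 fold change of value + 1, libraries labelled Sdc1-/- minus WT, for each S100 gene with its 95% interval from limma, under the authors' scaling (circles), a sum of 1000000 per library (squares) and quantile normalization (triangles), with the median of all genes as dotted lines. S100a8, S100a9 and S100a6 lie between -1.52 and -1.27 under each scaling, and of all these intervals only that of S100a1 at a sum of 1000000 crosses 0.

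S100a1 and S100a13 start head to head, and their RefSeq spans overlap by 98 bases. Within a library S100a1 exceeded S100a13 by 0.22, 0.17 and 0.29 on the log2 scale in the WT-labelled libraries and by 0.39, 0.37 and 0.34 in those labelled Sdc1-/-. The ratio was higher by 0.14 in the second group without overlap (p = 0.1 by a two-sided exact permutation test, its minimum here). No stretch of 31 bases of these transcripts occurs in another gene on either strand, and the same was found for S100a6, S100a8 and S100a9.

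Summed, the 8 genes made up 1.05% to 1.16% of the library total in the WT-labelled libraries and 0.465% to 0.485% in those labelled Sdc1-/-. The sum was 11525 ± 563 against 4533 ± 93.7 (SD, n = 3), a difference of -1.35 on the log2 scale with no overlap (p = 0.1 by a two-sided exact permutation test, its minimum here). Calprotectin supplied most of it. S100a8 and S100a9 together held 80.8% ± 0.62 of the S100 sum in the WT-labelled libraries and 72.1% ± 0.68 in the others (SD, n = 3). The share of S100a11 went from 4.27% to 8.84% and that of S100a10 from 2.18% to 4.65%.

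The order of levels changed with it. In the libraries labelled WT it ran S100a8, S100a9, S100a6, S100a11, S100a10, S100a4, S100a1 and S100a13, and no neighbours in that order overlapped between libraries. In the libraries labelled Sdc1-/- S100a6 and S100a11 overlapped, and S100a4 moved from position 6 to 8, below S100a1 and S100a13. This move rests on S100a4 counted alone, since summed with Gm42674 it stood above S100a1 in each of the 3 libraries labelled Sdc1-/- and kept position 6.

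In the pairs compared here, Anxa2 was lower by more than S100a10, and Anxa1 by more than S100a11. The exact permutation test used for the ratios cannot go under p = 0.1 with 3 against 3 libraries. Anxa2 went from 241 ± 6.70 to 124 ± 2.05 (SD, n = 3; log2 fold change -0.95, adjusted p = 1.8e-06 from limma). The log2 ratio of S100a10 to Anxa2 was 0.033, 0.11 and 0.049 in the WT-labelled libraries and 0.74, 0.77 and 0.77 in those labelled Sdc1-/-. It was higher by 0.70 with no overlap between the groups (p = 0.1 by a two-sided exact permutation test, its minimum here). Anxa1 went from 342 ± 14.6 to 153 ± 4.78 (SD, n = 3; log2 fold change -1.15, adjusted p = 2.4e-06 from limma). The log2 ratio of S100a11 to Anxa1 was 0.50, 0.49 and 0.58 against 1.44, 1.33 and 1.37, higher by 0.86 in the libraries labelled Sdc1-/- (exact permutation test, two-sided, p = 0.1).

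**Figure D3:**
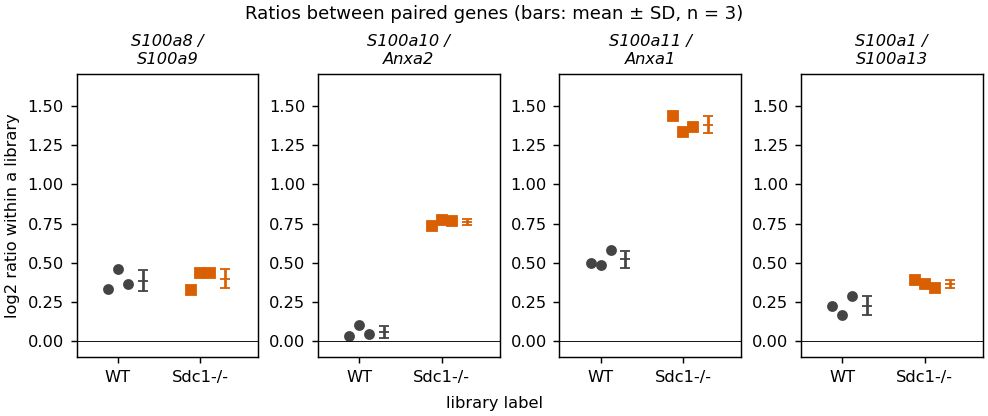
Log2 ratio within each library of S100a8 to S100a9, S100a10 to Anxa2, S100a11 to Anxa1 and S100a1 to S100a13 (y axis), by label (x axis), with mean and SD beside the 3 points of each group. The calprotectin pair overlaps between the groups, while the ratios to the annexins stand 0.70 and 0.86 higher in the libraries labelled Sdc1-/-.

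Among all 15 intracellular partners listed, 11 were tested, of which 5 were lower and 3 higher. Over all genes 31.3% were lower and 29.3% higher. The median difference of the partners on the log2 scale was -0.080 against -0.0097 over all genes. The higher ones were Cacybp, which binds S100a6 (128 ± 3.18 to 159 ± 3.11), Trp53, a target of S100a4 (135 ± 8.08 to 173 ± 5.17), and Myh9 (54.2 ± 2.03 to 75.1 ± 3.11; SD, n = 3 each), the last named after its values were seen. All 3 stayed higher and called under each scaling. S100a6 and S100a4 were lower in the group where these partners were higher. That follows from the group differences alone, and a link between the genes was not tested.
Of 8 receptors and coreceptors, 6 were tested and 5 were lower (31.3% of all genes), with a median of -0.49. Emb, a receptor on this list, went from 64.5 ± 0.76 to 29.7 ± 0.28 (SD, n = 3; log2 fold change -1.10, adjusted p = 9.3e-07 from limma). Bsg, another, was at 428 ± 8.79 and 401 ± 5.56 (SD, n = 3), with a log2 fold change of -0.093 whose sign changed at a sum of 1000000 (0.055). Cd36, at 14.8 ± 1.39 and 11.97 ± 1.53, was called by the main test and not at that sum, and Ly96, at 7.12 ± 1.49 and 5.58 ± 0.69 (SD, n = 3), was not called (adjusted p = 0.10 from limma). Cd14 (log2 fold change -1.29) and Tlr4 (-0.68), named after their values were seen, were lower from levels below 4. Ager, which encodes RAGE, and Mcam had means under 1 and were not tested. Ager went the other way at this low level, from 0.24 ± 0.047 to 0.81 ± 0.17 (SD, n = 3), without overlap. With every library at a sum of 1000000, 3 of the 6 were lower, as were 2367 of all 12150 genes tested.

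Transcription factors that act on S100 genes were mostly lower, 8 of the 10 tested with 1 higher and a median of -0.32, against 31.3% of all genes lower and 29.3% higher. Spi1, which encodes PU.1, went from 111 ± 2.35 to 59.4 ± 5.66 (SD, n = 3; log2 fold change -0.90, adjusted p = 3.8e-05 from limma). Ctnnb1, or β-catenin, a regulator of S100a4, was higher, at 194 ± 8.63 and 236 ± 14.2 (SD, n = 3; log2 fold change 0.28, adjusted p = 0.0034 from limma). Nfe2l2 and Stat3 were lower by 0.15 and 0.27 on the log2 scale, and Nfe2l2 was not called at a sum of 1000000. Cebpe (-1.03) and Cebpa (-0.91), C/EBP factors of granulocyte maturation named after their values were seen, differed most. At a sum of 1000000, 6 were lower and 2 higher, where 2367 of all 12150 genes tested were lower and 5290 higher.

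The family outside the 8 was scarce. Of the 9 further S100 genes with a row, 7 had a mean under 1 and none of these exceeded 0.81 in any library. S100b was above 0 in 1 library, at 0.014, and S100z was listed at 0 throughout. S100g, calbindin-D9k, had 9.18, 9.79 and 10.6 in the WT-labelled libraries and 8.94, 7.94 and 7.78 in the others. Its groups did not overlap (log2 fold change -0.24, adjusted p = 0.024 from limma), and at a sum of 1000000 it was not called (-0.10, adjusted p = 0.25 from limma). S100a5, which lies between S100a4 and S100a6, had 1.80, 2.55 and 3.49 against 3.77, 3.03 and 3.11, overlapping and not called (adjusted p = 0.20 from limma). S100a7l2 was not analysed here. Another list, named for EF-hand proteins though Calr has no EF-hand, held 10 genes, of which 8 were lower (31.3% of all genes). Its median was -0.23, closer to 0 than the -0.60 of the S100 members. At a sum of 1000000, 3 were lower and 1, Calr, was higher, where 2367 of all 12150 genes tested were lower and 5290 higher. Capns1, the small calpain subunit, was lower by 0.41 on the log2 scale (320 ± 9.74 to 240.2 ± 2.98), and Calm2 was not called (308 ± 14.1 and 298 ± 14.4; SD, n = 3 each).

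Along chromosome 3 few genes beside the S100 genes could be tested. Of 96 genes that are no S100 gene and lie between the outermost members or among the 5 beyond each, 78 had a row and 5 were tested. Chtop, Snapin and Ilf2, next to S100a1, were higher by 0.20, 0.26 and 0.39 on the log2 scale (adjusted p from 1.3e-04 to 0.0022 from limma), also under the other scalings. By the same rule 29.3% of all genes tested were higher under the authors' scaling, and 5290 of 12150 at a sum of 1000000. The pseudogenes Gm4202 and Rplp0-ps1, between S100a9 and S100a11, had log2 fold changes of -0.52 (95% interval -1.22 to 0.18) and -0.16 (-0.46 to 0.15), overlapped between the groups and were not called. No gene beyond S100a10 was tested. S100a6, S100a8 and S100a9, with the largest differences, are consecutive among the tested genes.

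**Figure D4:**
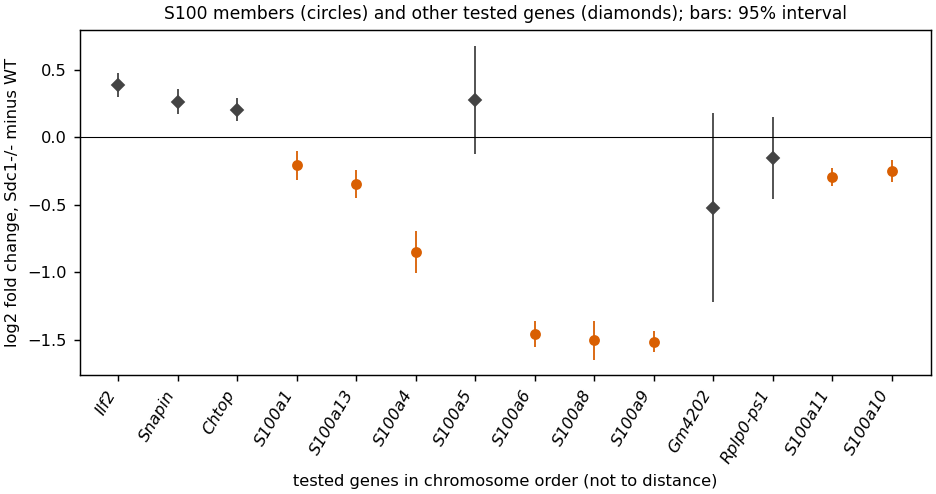
Log2 fold change of value + 1, libraries labelled Sdc1-/- minus WT, with 95% intervals from limma, for the 14 tested genes around the S100 genes in chromosome order and not to distance. Circles are the 8 S100 members, all below 0 and lowest at S100a6, S100a8 and S100a9, and diamonds are other genes, with Ilf2, Snapin and Chtop above 0.

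By distance between centred log2 values over the 6 libraries, the genes most like S100a8 among 8965 with a mean of at least 5 were Cd300lf (distance 0.12), S100a6 (0.13) and S100a9 (0.13). Those most like S100a9 were Trnp1 (0.085), S100a6 (0.088) and Pirb (0.098). Cd300lf and Pirb encode inhibitory receptors of myeloid cells. All these genes share the same libraries, so the likeness rests mainly on the difference between the groups.

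Marker genes of maturing myeloid cells moved with calprotectin. Of all genes tested 31.3% were lower and 29.3% higher, and at a sum of 1000000, 2367 of 12150 were lower and 5290 higher. All 12 markers of neutrophil secondary and tertiary granules and maturation were lower, with a median log2 fold change of -1.66, and their summed level ran from 5782 to 5883 in the WT-labelled libraries and from 2230.3 to 2312 in those labelled Sdc1-/-. Ngp, a granule protein, went from 2677 ± 12.7 to 839 ± 22.7, Lcn2 from 496 ± 11.2 to 135 ± 2.61, Chil3 from 1478 ± 77.2 to 708 ± 21.3 and Camp from 554 ± 11.99 to 404 ± 12.1 (SD, n = 3 each). The 4 primary granule genes, made earlier in maturation, were lower by a median of 0.64 on the log2 scale, with summed levels of 1058 to 1159 and of 734 to 754. Of 10 monocyte and macrophage markers 9 were tested, with 8 lower, 1 (Cx3cr1) higher and a median of -1.17, and sums of 572 to 594 against 255 to 264. None of these markers was at 0. Progenitor markers went the other way in 5 of 8 cases (6 at a sum of 1000000), with 2 (Cd34 and Flt3) lower (1 at that sum) and sums of 425 to 447 against 482 to 489. The 5 include Hoxa9, from which reads of the introduced NUP98-HOXA9 were not told apart. Counts in the neutrophil and monocyte lists were the same under each scaling. Their part in the S100 differences was not tested.

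Smaller lists for other cells are given with their ranges, beside the 31.3% of all genes that were lower and the 29.3% that were higher. Erythroid markers were lower in 6 of 7 cases with Klf1 higher (sums 8681 to 9185 and 4936 to 5323), megakaryocyte markers in 4 of 5 with Pf4 higher (496 to 523 and 498 to 510.4), mast cell, basophil and eosinophil markers in 5 of 5 (860.2 to 890.3 and 386 to 390.0). Stroma and endothelium summed to 21.9 to 23.4 and 16.96 to 17.2, with both tested genes, Pdgfrb and Pecam1, lower, and at a sum of 1000000 Pecam1 and the megakaryocyte gene Itga2b were not called. B cell sums were 1.96 to 2.77 and NK cell sums 6.28 to 7.32, and neither list held a called gene under the authors' scaling. Ptprc, the leukocyte marker, was at 26.9 ± 1.05 and 22.8 ± 1.09 (SD, n = 3), lower by 0.23 on the log2 scale and not called at a sum of 1000000. Cx3cr1, Cd34, Flt3, Klf1, Pf4 and Itga2b are named here after their values were seen. The part of these cells in the S100 values was not tested.

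**Figure D5:**
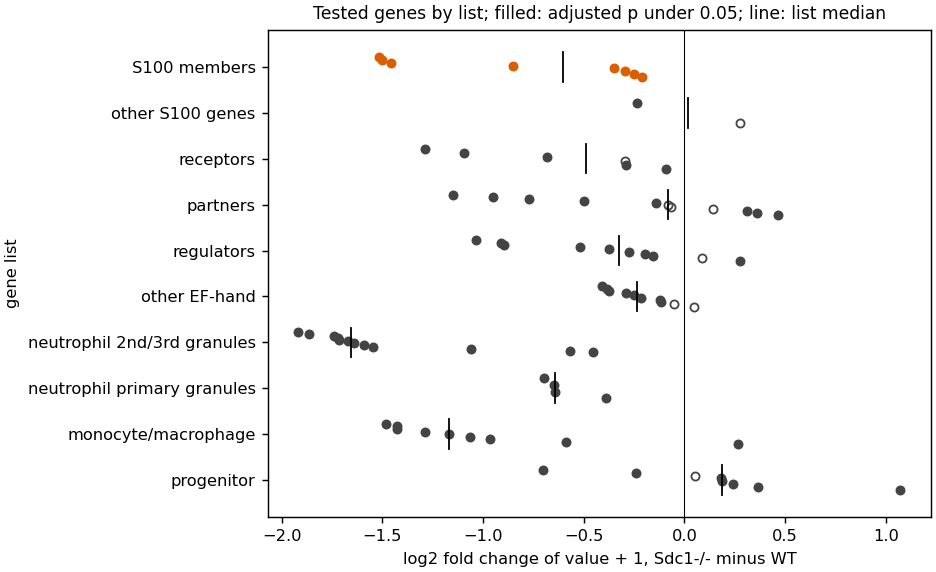
Log2 fold change of value + 1, libraries labelled Sdc1-/- minus WT, for the tested genes of each list, filled where the adjusted p from limma was under 0.05, with the list median as a line. S100 members (median -0.60) range from -1.52 to -0.21, their lowest 3 beside the neutrophil granule genes (median -1.66), while 5 of 8 progenitor genes are called above 0.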

How the data were processed

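The study sequenced 3 libraries labelled WT and 3 labelled Sdc1-/-, each from 150 ng of RNA, as single reads of 75 bases. Per the labels and the study's methods, the authors ran kallisto and sleuth 0.30.0 with build mm10, and the version of kallisto is not given in the sources used here. The authors deposited a signal per gene and library, TPM rescaled between libraries. Their second table holds the p-values and effect sizes of their own test and was not used. TPM had been assumed in the plan, whose log2 test also suits rescaled values and was used.

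Of 36083 genes, 35454 were matched to a symbol. Genes with a mean of at least 1 were tested with limma 3.58.1 in R 4.3.3 on log2(value + 1), which understates changes of low genes. The fit used the group label alone, with limma's trend option and Benjamini-Hochberg adjustment over all 12155 genes. Ratios and sums were compared by exact permutation tests. The fit was tested on simulated data. Sums, ratios and plots were made in Python 3.11.15 with pandas 2.3.3, numpy 2.4.6 and, for plots, matplotlib 3.10.9. Promoters came from RefSeq on GRCm38.p6 and stretches of 31 bases from GENCODE M21 transcripts.

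Members and lists were chosen with earlier results of these data known. Genes named are the 8 members, Sdc1, up to 4 tested genes per list with the highest mean, and the 3 genes nearest to S100a8 and to S100a9. A gene that this rule names is not reported here. In all 14 alternatives to the fit changed the scaling, pseudocount, minimum mean, trend option, block on replicate number or set of libraries, and 1 more, S100a4 summed with Gm42674, was chosen after seeing the data.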

Additional observations from a re-analysis of the deposited data

How the results depend on the processing

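All 8 S100 genes kept their direction under the 14 alternatives to the fit, and 7 kept their call. S100a1 was not called with every library at a sum of 1000000 (-0.062) or with quantile normalization (-0.11), where 7 members were lower. Over all genes 2367 instead of 3810 were lower and 5290 instead of 3564 higher at that sum. Leaving out each library in turn, the log2 fold change ran from -1.54 to -1.44 for S100a8, from -1.54 to -1.49 for S100a9 and from -0.25 to -0.17 for S100a1, and 8 of 8 members stayed lower. The difference in the ratio of S100a8 to S100a9 ran from -0.014 to 0.049 over the same alternatives. Summed with Gm42674, S100a4 gave -0.97, with a permutation p of 0.1 that no result of 3 against 3 libraries can go under. Replicate numbers were taken as names only: deviations of same-numbered libraries correlated at 0.15, -0.0083 and 0.018. With the replicate block 3971 genes were lower and 3653 higher, 8 members were lower, and no call on a member changed, and not every library correlated best with its own number. For the ratios and the sum, an exact permutation test within numbers gave p = 0.25, the smallest that 3 pairs allow, or 1 for S100a8 to S100a9. Without read counts no counting error can be given.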
